A study of Homo sapiens with 12 samples.

Results

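The IL-1 family cytokines of epithelium were followed as 8 genes, *IL1A*, *IL1B*, *IL1RN*, *IL18*, *IL33*, *IL36G*, *IL36RN* and *IL1R2*. The members were taken by gene symbol, and all 8 were found among the 60099 genes of the expression table. Cal27 and HN30, established lines of head and neck squamous cell carcinoma (HNSCC), were sequenced untreated or after 24 h with interferon alpha (IFNα) at 20 or 200 ng/ml. The 12 samples carry the letters A and D (untreated control), B and E (20 ng/ml) and C and F (200 ng/ml), with replicates 1 and 2 of each letter. The letters form 2 line sets, A-C and D-F, and the sources used here do not say which set is Cal27 and which is HN30. No other treatment or genetic change is named for these samples, each line comes from a single tumour, and the labels do not say whether the replicates came from separate cultures.

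IL-1α and IL-1β are the founding ligands of the family. Both bind the IL-1 receptor (IL1R1), which recruits its accessory chain (IL1RAP) and signals through MYD88, IRAK kinases and TRAF6 to NF-κB. Keratinocytes and squamous tumour cells hold IL-1α as a preformed alarm signal, whereas IL-1β and IL-18 are made as precursors that caspase-1 cleaves in inflammasomes. The pathway is restrained by IL1RN, a ligand-like antagonist that occupies IL1R1, and by IL1R2, a decoy receptor that binds the ligands and has no signalling domain. IL-36γ (IL36G) and its antagonist IL36RN form a parallel pair at the IL-36 receptor (IL1RL2), and IL-33 is a nuclear alarm cytokine of barrier epithelium that is read by IL1RL1.

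Samples held between 10517448 and 16056734 estimated counts, and every untreated sample was deeper than every sample at 200 ng/ml. A floor of 3 counts per sample corresponded to 0.187 to 0.285 CPM, the counts scaled to library size. All 20 of 20 interferon-stimulated genes used to check the dose labels were called higher at each dose in each line set. Averaged over line sets, the median of their log2 changes was 3.77 for 200 ng/ml and 3.22 for 20 ng/ml. Between 200 and 20 ng/ml 0 of the 20 were called, with a median of 0.31. The check thus set treated samples apart from untreated ones, but not the doses from each other. Squamous epithelial markers were present at a summed 2829 to 3463 TPM (transcript abundance scaled for transcript length and library size) in A-C, with 10 of 10 genes at a mean of at least 1 TPM. In D-F they summed to 1393 to 1653 TPM with 9 of 10 at that level, and *KRT14* stood at 0.0718 TPM. Of 10 leukocyte markers, which matter here because myeloid cells are a major source of *IL1B*, *CD68*, *CSF1R* and *CD14* exceeded 1 TPM in A-C and *CD68* and *CSF1R* did so in D-F, with summed levels of 12.8 to 21 and 8.67 to 43.7 TPM. *CD3E*, *NKG7* and *FCGR3A* were at 0 counts in every sample, and *PTPRC* averaged 0.00561 TPM in A-C and 0.00709 TPM in D-F. Fibroblast markers summed to 7.36 to 16 TPM in A-C and 43.1 to 51.2 TPM in D-F, mostly *FAP* in the latter at 34.7 TPM. Endothelial markers summed to 15.3 to 21.7 TPM in A-C, mostly *CDH5* at 18.7 TPM, and to at most 0.796 TPM in D-F. The samples were cultures of established tumour lines, and no other cell type is named for the sequenced cultures. The part of these markers in the results was not tested.

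A gene is said to rise or fall where edgeR's quasi-likelihood test gave an adjusted p (Benjamini-Hochberg over 19944 genes) of at most 0.05, and is called where the change was also at least 2-fold. Of the 8 members, 6 passed the filter on low counts and were tested, whereas *IL33* and *IL36G* did not pass. The p-values measure the spread between the samples, which may be technical.

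The 8 genes lie on 3 chromosomes, at the same positions in the deposited table and in GENCODE 29 on GRCh38, and all are protein coding. *IL1R2* (ENSG00000115590) spans chr2:101991844-102028544 on the plus strand. The ligand cluster follows on the same chromosome with *IL1A* (ENSG00000115008, chr2:112773915-112784590, minus strand) and *IL1B* (ENSG00000125538, chr2:112829751-112836903, minus strand). Farther along are *IL36G* (ENSG00000136688, chr2:112973203-112985665), *IL36RN* (ENSG00000136695, chr2:113058638-113065382) and *IL1RN* (ENSG00000136689, chr2:113107214-113134016), all on the plus strand. *IL18* (ENSG00000150782) lies at chr11:112143251-112164117 on the minus strand and *IL33* (ENSG00000137033) at chr9:6215786-6257983 on the plus strand. *IL18* overlaps AP002884.3 on the opposite strand, which held 1 to 25 counts per sample, and *IL36G* overlaps a pseudogene on the opposite strand with at most 1 count. The libraries were strand-specific by protocol, but the strand setting of the counting is not given in the sources used here.

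RefSeq promoter windows (GRCh38.p14, 250 bases before to 50 after an annotated start) were found for 7 of the 8 members, 13 windows in all. They are shown for the ligands and for the 2 inhibitors, because both inhibitors were called higher at 200 ng/ml and each has more than 1 start, while the ligands differed in response between line sets. Capitals mark matches to 4 motifs searched on both strands, namely the core of the interferon-stimulated response element (ISRE, GAAA, any 2 bases and GAAA), the gamma-activated site (GAS, TTCNNNGAA), the AP-1 site (TGANTCA) and the NF-κB consensus. Sequences run 5′ to 3′ on the strand of the gene.
IL1R2, upstream start, chr2:101991710-101992009, plus strand: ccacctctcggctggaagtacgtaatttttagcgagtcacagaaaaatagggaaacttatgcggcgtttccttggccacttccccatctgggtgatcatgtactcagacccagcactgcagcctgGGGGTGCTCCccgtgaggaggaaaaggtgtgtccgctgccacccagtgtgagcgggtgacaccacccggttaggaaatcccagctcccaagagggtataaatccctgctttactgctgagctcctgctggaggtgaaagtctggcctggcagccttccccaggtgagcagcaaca
IL1R2, downstream start, chr2:101998711-101999010, plus strand: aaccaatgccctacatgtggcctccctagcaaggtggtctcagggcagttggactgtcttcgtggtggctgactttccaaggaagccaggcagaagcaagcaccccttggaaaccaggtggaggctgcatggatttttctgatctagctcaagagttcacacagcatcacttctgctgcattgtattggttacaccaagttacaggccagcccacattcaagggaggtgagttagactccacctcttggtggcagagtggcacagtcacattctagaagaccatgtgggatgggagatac
IL1RN, start of the intracellular form, chr2:113117721-113118020, plus strand: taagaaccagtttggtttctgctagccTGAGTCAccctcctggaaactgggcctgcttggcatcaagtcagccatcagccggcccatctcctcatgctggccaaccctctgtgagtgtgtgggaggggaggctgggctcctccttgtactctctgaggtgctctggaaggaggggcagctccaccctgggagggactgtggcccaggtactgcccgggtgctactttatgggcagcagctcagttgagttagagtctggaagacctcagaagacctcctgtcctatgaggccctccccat
IL1RN, start of the secreted form, chr2:113127348-113127647, plus strand: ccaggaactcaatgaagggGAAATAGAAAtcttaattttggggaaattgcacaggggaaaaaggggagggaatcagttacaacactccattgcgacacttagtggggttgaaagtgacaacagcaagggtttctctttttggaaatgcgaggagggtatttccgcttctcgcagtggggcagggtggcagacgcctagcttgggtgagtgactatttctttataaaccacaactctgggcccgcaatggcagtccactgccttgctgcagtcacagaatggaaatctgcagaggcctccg
IL1A, chr2:112784444-112784743, minus strand: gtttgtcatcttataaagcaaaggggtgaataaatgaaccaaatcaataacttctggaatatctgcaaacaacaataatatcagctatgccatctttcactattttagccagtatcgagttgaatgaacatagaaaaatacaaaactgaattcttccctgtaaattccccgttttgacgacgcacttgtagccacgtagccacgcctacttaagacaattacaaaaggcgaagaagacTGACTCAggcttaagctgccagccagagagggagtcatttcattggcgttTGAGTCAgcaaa
IL1B, chr2:112836730-112837029, minus strand: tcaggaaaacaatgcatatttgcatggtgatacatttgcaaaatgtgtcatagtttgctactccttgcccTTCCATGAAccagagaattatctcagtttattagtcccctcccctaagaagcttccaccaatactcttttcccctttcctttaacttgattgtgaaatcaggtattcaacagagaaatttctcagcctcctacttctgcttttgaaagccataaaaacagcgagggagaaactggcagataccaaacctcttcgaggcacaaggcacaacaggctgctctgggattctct

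Among the member windows, the ISRE core occurred in *IL1RN* alone, as GAAATAGAAA beginning 231 bases before the secreted-form start shown and within both of the overlapping windows of that start. Of all 35116 promoter windows of the same length, 3.57% held this motif. AP-1 letters were found in *IL1A*, 12 bases before and 39 bases after the start shown, and in *IL1RN*, 223 bases before the intracellular-form start, against 7.71% of all windows. GAS letters were found in *IL1B*, 180 bases before the start, and in 1 *IL33* window, against 7.66% of all windows. The NF-κB consensus matched at the upstream start of *IL1R2* and in 1 *IL36RN* window, against 11.3% of all windows. The downstream *IL1R2* window held none of the motifs in these letters. No motif match overlapped another in the windows shown.

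*IL1B* and *IL1A* were the most abundant members in A-C. *IL1B* stood at 513 and 480 TPM in A1 and A2, 484 and 438 in B1 and B2, and 467 and 484 in C1 and C2. This placed it between 165th and 200th of all genes by TPM in these 6 samples. In D-F, *IL1B* was at 77.0 and 63.8 TPM in the controls, 117 and 109 at 20 ng/ml, and 125 and 128 at 200 ng/ml. The treated and untreated D-F samples did not overlap, and no D-F sample reached the lowest A-C sample.

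Untreated D cells had 8.13-fold less *IL1B* than untreated A cells (log2 difference −3.02 ± 0.09 SE, edgeR adjusted p = 6.06e-08). In D-F, *IL1B* rose by 0.74 ± 0.08 on the log2 scale at 20 ng/ml (adjusted p = 0.00101) and by 0.90 ± 0.08 at 200 ng/ml (adjusted p = 0.000211), both under 2-fold. In A-C the change was −0.05 ± 0.08 at 20 ng/ml and −0.06 ± 0.08 at 200 ng/ml, and neither passed. The difference in the response to 200 ng/ml was 0.96 ± 0.12 (adjusted p = 0.00671) and kept an adjusted p of at most 0.04 without each sample in turn. At 20 ng/ml the difference was 0.79 ± 0.12 (adjusted p = 0.026), and without 1 sample at a time it passed in 3 of 12 fits. The spliced coding transcript IL1B-201 carried 65.5 to 83.5% of *IL1B* TPM, and the retained-intron transcript IL1B-208 carried 7.53 to 24%.

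*IL1A*, the constitutive keratinocyte ligand, was at 219 and 211 TPM in A1 and A2, 233 and 232 in B, and 221 and 239 in C. It was at 41.0 and 37.8 TPM in D1 and D2, 81.7 and 86.7 in E, and 85.1 and 86.1 in F. The D-F controls thus lay apart from all treated D-F samples, and the E and F samples overlapped. The deposited data hold only 1 transcript of *IL1A*, IL1A-201, so its use of transcripts could not be read.

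Untreated D cells had 5.96-fold less *IL1A* than A cells (log2 difference −2.58 ± 0.08, edgeR adjusted p = 6.06e-08). In D-F it rose 2.04-fold at 20 ng/ml (log2 1.03 ± 0.07, adjusted p = 3.64e-05) and 2.05-fold at 200 ng/ml (log2 1.04 ± 0.07, adjusted p = 2.73e-05), both just past the 2-fold line. Without D2 both changes fell just below 2-fold, as did the change at 20 ng/ml without E2, with adjusted p of at most 0.000934 in these fits. In A-C the change was 0.11 ± 0.07 at each dose and did not pass. The response differed between line sets by 0.92 ± 0.10 at 20 ng/ml (adjusted p = 0.00628) and 0.93 ± 0.10 at 200 ng/ml (adjusted p = 0.00439), and passed in 12 of 12 fits without 1 sample at each dose.

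**Figure D1:**
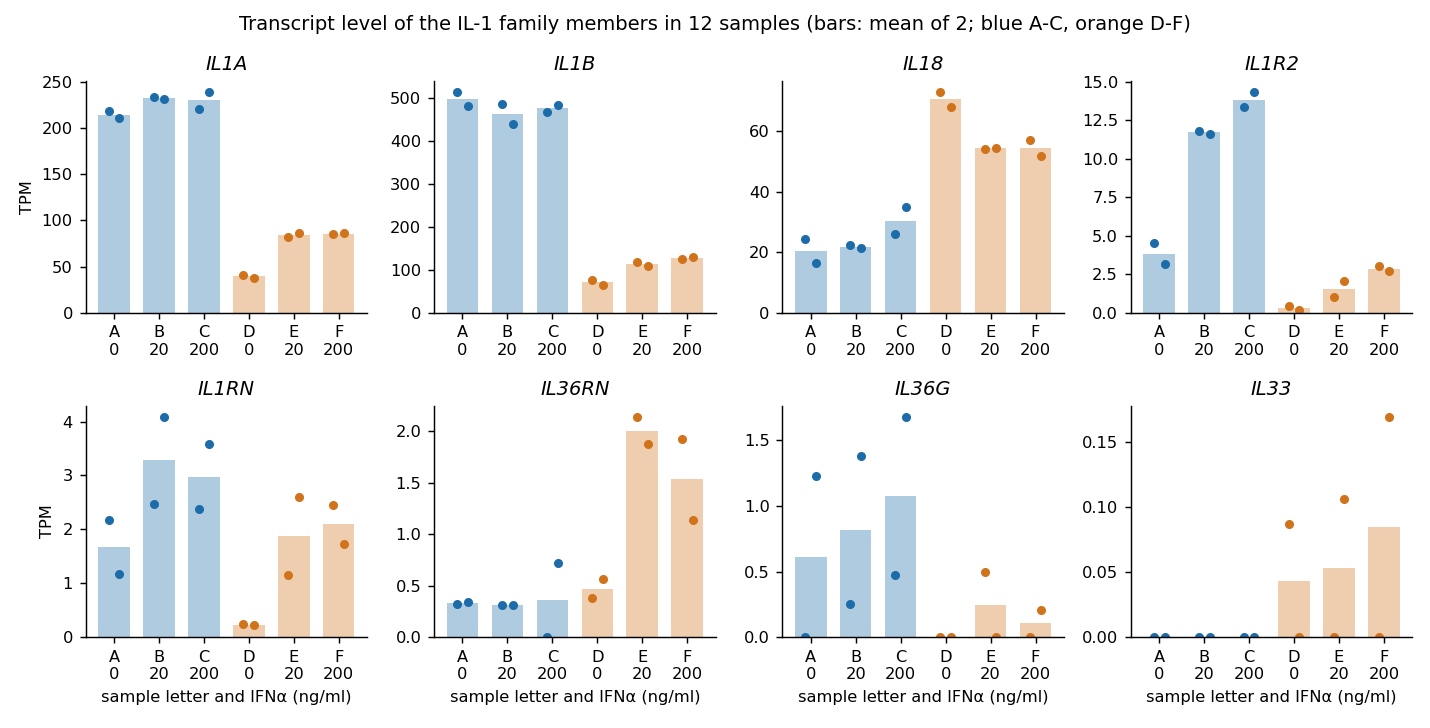
TPM of the 8 members in the 12 samples, by sample letter and IFNα concentration in ng/ml, with points for replicates and bars for the mean of 2 (blue A-C, orange D-F). Each panel has its own linear axis from 0. *IL1A* and *IL1B* were flat in A-C and higher in E and F than in D, *IL1R2* was higher in every treated sample than in the controls of its line set, and *IL33* did not exceed 0.170 TPM.

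*IL18*, the inflammasome-processed cytokine that induces interferon gamma in lymphocytes, had the opposite baseline. It was at 24.4 and 16.4 TPM in A1 and A2, 22.2 and 21.5 in B, and 26.0 and 34.9 in C. It was at 73.0 and 68.2 TPM in D1 and D2, 54.1 and 54.6 in E, and 57.0 and 51.8 in F. Every D-F sample was above every A-C sample, treated D-F samples lay below their controls, and both C samples lay above both A samples.

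*IL18* was 3.16-fold higher in untreated D than in A cells (log2 1.66 ± 0.18, edgeR adjusted p = 6.37e-05). Its change at 200 ng/ml was 0.62 ± 0.18 in A-C (adjusted p = 0.0777) and −0.48 ± 0.18 in D-F (adjusted p = 0.171), and averaged over line sets it was 0.07 ± 0.13. By DESeq2 the A-C change had an adjusted p of 0.0337 and the D-F change one of 0.116. The difference between line sets was −1.09 ± 0.25, with an adjusted p of 0.0645 by edgeR and of 0.0053 to 0.191 over 16 alternatives, the lowest by DESeq2. In TPM, *IL18* was 0.948 and 1.07 times *IL1B* in D1 and D2 and 0.404 to 0.500 times in E and F, where *IL1B* itself rose. The ratio was 0.0475 and 0.0341 in A, 0.0459 and 0.0492 in B and 0.0557 and 0.0722 in C, so that both C samples lay above both A samples.

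*IL1R2*, the decoy receptor, was the member called at both doses when averaged over line sets. Its TPM was 4.55 and 3.13 in A1 and A2, 11.8 and 11.6 in B, and 13.3 and 14.3 in C. In D-F it was 0.435 and 0.146 TPM in D1 and D2, 1.03 and 2.08 in E, and 3.01 and 2.68 in F. Treated samples were above the controls in both line sets without overlap. These levels rested on 37 to 128 counts per sample in A-C and on 3 to 27 in D-F.

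Averaged over the line sets, *IL1R2* rose 5.07-fold at 200 ng/ml (log2 2.34 ± 0.27, edgeR adjusted p = 0.000689) and 3.82-fold at 20 ng/ml (log2 1.93 ± 0.28, adjusted p = 0.00423), and it was called in 12 of 12 fits without 1 sample at each dose. At 200 ng/ml the change was 3.53-fold in A-C (log2 1.82 ± 0.32, adjusted p = 0.0125) and 7.29-fold in D-F (log2 2.87 ± 0.44, adjusted p = 0.00455). The A-C call was lost without A1, A2 or C2, with an adjusted p of up to 0.0935, and the D-F call was lost without D2, at 0.0501. At 20 ng/ml it was called in A-C (log2 1.69 ± 0.32, adjusted p = 0.0427) and in D-F (log2 2.18 ± 0.46, adjusted p = 0.0347), but these calls held in only 2 and 1 of the 12 fits without 1 sample, with adjusted p reaching 0.236 and 0.352. The response to 200 ng/ml did not differ past the threshold between line sets (log2 difference 1.05 ± 0.55, adjusted p = 0.357). The counting ratio of F to D was 7.55, with a 95% exact conditional interval of 3.54 to 18.5, and of C to A 3.41 (2.61 to 4.48). These intervals cover counting error only. Untreated D cells had 10.4-fold less *IL1R2* than A cells (log2 −3.37 ± 0.43, adjusted p = 0.000161).

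Estimated counts of *IL1R2* were divided between both starts whose promoter windows are shown. Transcripts from the upstream start summed to 13, 49 and 50 counts in A, B and C, and those from the downstream start to 23, 113 and 50. In D, E and F the sums were 3, 16 and 4 upstream and 1, 7 and 28 downstream. The division varied within replicates, as in C1 with 44 upstream and 0 downstream counts and C2 with 6 and 50. Other *IL1R2* transcripts held the remaining counts, and no preference for a start could be read at this depth.

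*IL1RN*, the receptor antagonist, was at 2.18 and 1.17 TPM in A1 and A2, 2.47 and 4.09 in B, and 2.37 and 3.58 in C. It was at 0.240 and 0.228 TPM in D1 and D2, 1.15 and 2.60 in E, and 2.45 and 1.74 in F. The D-F groups did not overlap with their controls, and the treated A-C samples were above A in TPM by as little as 2.37 against 2.18. In CPM, B1 at 1.52 lay below A1 at 2.21, so A and B overlapped. The whole gene held 4 counts in each D sample and at most 53 in any sample.

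*IL1RN* rose 3.61-fold at 200 ng/ml averaged over line sets (log2 1.85 ± 0.41, edgeR adjusted p = 0.0214). Without A2, C2, D1, D2 or F1 its adjusted p was between 0.0624 and 0.0821. In D-F the rise was 7.6-fold (log2 2.93 ± 0.64, adjusted p = 0.0268), and without D1, D2, F1 or F2 the call was lost with an adjusted p of up to 0.157. In A-C the change was 0.78 ± 0.51 (adjusted p = 0.418), and the difference between line sets was 2.15 ± 0.82 (adjusted p = 0.212). At 20 ng/ml the averaged change was 1.53 ± 0.41, with an adjusted p of 0.0806 by edgeR and of 0.0484 to 0.272 over 16 alternatives, the lowest by DESeq2. The counting ratio of F to D was 7.86 (95% interval 3.7 to 19.2) and of C to A 1.66 (1.14 to 2.44). Untreated D cells had 6.88-fold less *IL1RN* than A cells (log2 −2.78 ± 0.64, adjusted p = 0.00544).

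Most *IL1RN* counts were estimated for the intracellular forms, with sums of 42, 38 and 44 in A, B and C and of 8, 25 and 41 in D, E and F. The secreted form, whose promoter window holds the ISRE core, had sums of 6, 24 and 8 in A, B and C and of 0, 9 and 3 in D, E and F. The secreted form was at 0 counts in A2, D1, D2 and F1, so its change with dose could not be resolved at this depth.

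**Figure D2:**
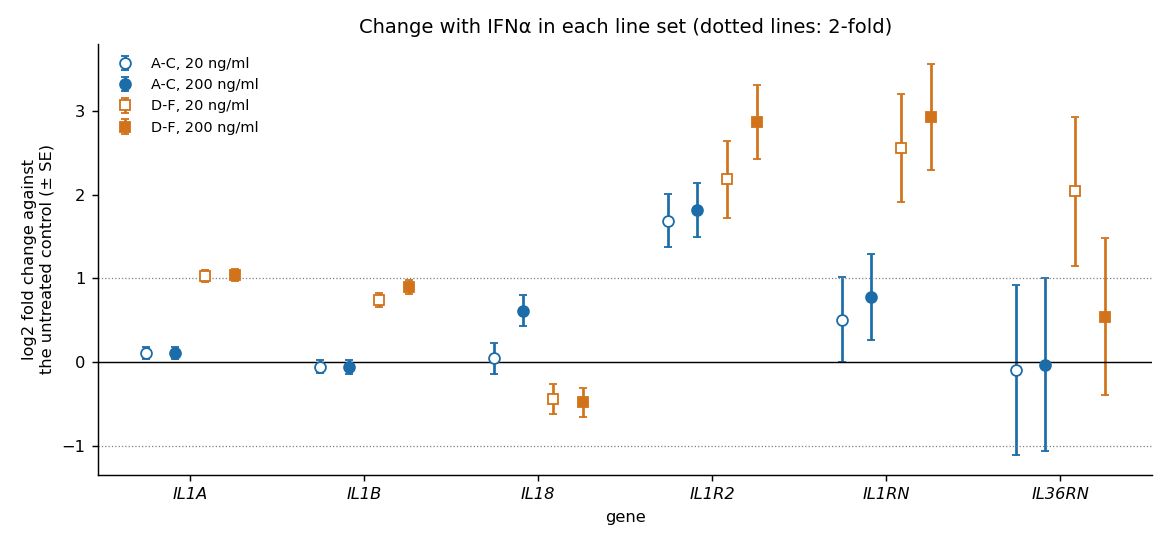
Log2 fold change against the untreated control of the same line set, with standard errors from edgeR, for the 6 tested members (open symbols 20 ng/ml, filled symbols 200 ng/ml; blue A-C, orange D-F). *IL1A* and *IL1B* lie near 0 in A-C, the D-F values of both range from 0.74 to 1.04, *IL1R2* lies above 1 in both line sets, and the bars of *IL1RN* and *IL36RN* are wide because these genes held few counts.

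The transcript ratio of the IL-1 ligands to their inhibitors, (*IL1A* + *IL1B*) over (*IL1RN* + *IL1R2*) in TPM, was 109 and 161 in A1 and A2. It was 50.2 and 42.7 in B and 43.8 and 40.3 in C. In D1 and D2 the ratio was 175 and 271, against 91.5 and 41.8 in E and 38.4 and 48.6 in F. The D ratios rest on 4 and 4 counts of *IL1RN* and 5 and 3 counts of *IL1R2*, so their size is uncertain. In both line sets each treated sample lay below each control, although the ligand sum itself rose from 102 and 118 TPM in D to 210 and 214 TPM in F. *IL1RN* made up 0.169 to 0.611% of the ligand TPM in A-C and 0.203 to 1.33% in D-F. *IL1R2* made up 0.454 to 0.622% in A, 1.65 to 1.98% in B and C, 0.144 to 0.369% in D and 0.517 to 1.44% in E and F. These are ratios of transcripts and say nothing of secreted protein, and no test was made of them.

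**Figure D3:**
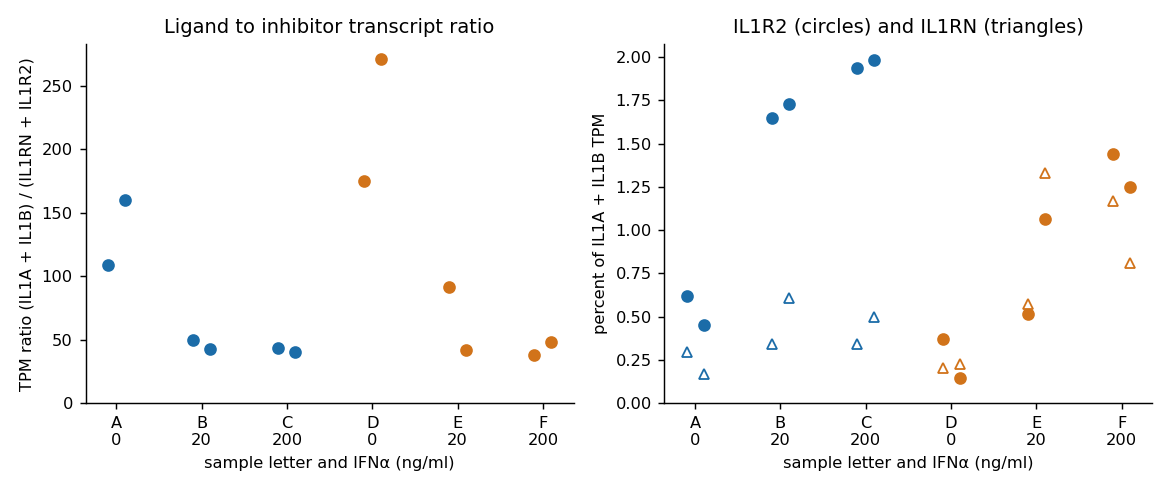
Left, the TPM ratio of *IL1A* plus *IL1B* to *IL1RN* plus *IL1R2* in each sample; right, *IL1R2* (circles) and *IL1RN* (triangles) as a percent of *IL1A* plus *IL1B* TPM (blue A-C, orange D-F; IFNα in ng/ml). The ratio was at least 109 in the 4 controls and at most 91.5 in the 8 treated samples. In D1 and D2 it rests on at most 5 counts of each inhibitor.

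The IL-36 pair was scarce. *IL36RN*, the IL-36 receptor antagonist, held 7 and 10 counts in A, 7 and 8 in B, 0 and 12 in C, 9 and 14 in D, 38 and 38 in E and 6 and 21 in F. The E samples stood above all others, and the F samples overlapped with the controls. By edgeR the change at 20 ng/ml in D-F was 2.04 ± 0.89 (adjusted p = 0.321), against a counting ratio of 4.16 (95% interval 2.58 to 6.95), and at 200 ng/ml it was 0.54 ± 0.93 (adjusted p = 0.843). The TPM of F1, 1.93, was close to the 2.14 and 1.87 of E although it rested on 6 counts, all of which were assigned to the short transcript IL36RN-203. Untreated *IL36RN* did not differ past the threshold (log2 0.30 ± 0.97, adjusted p = 0.824).

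*IL36G*, the epithelial IL-36 ligand, held 0 and 6 counts in A, 3 and 11 in B, 3 and 8 in C, 0 and 0 in D, 4 and 0 in E and 0 and 1 in F. The counting ratio of C to A was 2.35 (95% interval 0.798 to 7.75), so no change was detectable at this depth. *IL33* was at 0 counts in all 6 A-C samples, which allows up to 0.187 to 0.285 CPM, and held 2 and 0 counts in D, 0 and 2 in E and 0 and 4 in F. Its counting ratio of F to D was 2.52 (0.361 to 27.8).

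In untreated A cells the order by mean TPM was *IL1B* (496 ± 23.6, SD, n = 2), *IL1A* (215 ± 5.59), *IL18* (20.4 ± 5.67), *IL1R2* (3.84 ± 1.00), *IL1RN* (1.67 ± 0.719), *IL36G* (0.612 ± 0.866) and *IL36RN* (0.331 ± 0.0128), with *IL33* at 0. The samples of *IL36G* overlapped with those of *IL1RN* and *IL36RN*, and the other neighbours were apart. In untreated D cells it was *IL18* (70.6 ± 3.40) and *IL1B* (70.4 ± 9.36), which overlapped, then *IL1A* (39.4 ± 2.23), *IL36RN* (0.471 ± 0.132), *IL1R2* (0.291 ± 0.204) and *IL1RN* (0.234 ± 0.00834). *IL36RN* and *IL1R2* overlapped in D, as did *IL1R2* and *IL1RN*. At 200 ng/ml the order in D-F was *IL1B*, *IL1A*, *IL18*, *IL1R2* and *IL1RN*, with no overlap between these neighbours, followed by *IL36RN*, which overlapped with *IL1RN*.

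Counted together, 5 of 6 tested members were called between the untreated line sets, 4 lower in D and *IL18* higher. Among all 19944 genes tested, 11% were called lower and 15.7% higher in that comparison. For 200 ng/ml averaged over line sets, 2 of 6 were called higher (*IL1R2* and *IL1RN*), where 1.58% of all genes were, and none lower, where 0.552% were. At 20 ng/ml 1 of 6 was called higher (*IL1R2*), against 0.963% of all genes. Within A-C the count was 1 of 6 at each dose (*IL1R2*), against 0.632% of all genes at 20 ng/ml and 1.41% at 200 ng/ml. Within D-F it was 2 of 6 at 20 ng/ml (*IL1A* and *IL1R2*), against 1.2%, and 3 of 6 at 200 ng/ml (*IL1A*, *IL1R2* and *IL1RN*), against 1.67%. The last count was 0 without D2, which took *IL1A* just below 2-fold and *IL1R2* and *IL1RN* to adjusted p of 0.0501 and 0.145. Comparisons with the same controls share those samples.

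Between the doses no member was called by edgeR or DESeq2, and 0 of 6 had an unadjusted p of at most 0.05 by edgeR. Of all genes, 0.0451% were called and 9.26% had such an unadjusted p. The log2 difference between 200 and 20 ng/ml was 0.00 ± 0.05 for *IL1A*, 0.08 ± 0.06 for *IL1B* and 0.41 ± 0.24 for *IL1R2*. For the difference in response between line sets no member was called by edgeR, where 0.998% of all genes were at 200 ng/ml and 0.231% at 20 ng/ml. At an unadjusted p of at most 0.05 there were 4 of 6 members at 200 ng/ml, against 17.7% of all genes, and 3 of 6 at 20 ng/ml, against 10.5%. DESeq2 called 1 (*IL18*) at 200 ng/ml and 0 at 20 ng/ml.

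Of the 9 receptors of the family beside *IL1R2*, 7 were tested. *IL1R1*, the signalling IL-1 receptor, was at 15.2 and 17.7 TPM in A and 3.63 and 3.25 TPM in D, a 4.57-fold difference (log2 −2.19 ± 0.19, edgeR adjusted p = 1.42e-05). *IL18R1* (log2 −1.34 ± 0.29) and *IL1RL2* (log2 −1.54 ± 0.26) were also called lower in D. *IL1RAP*, the shared accessory chain, was at −0.96 ± 0.21 and *SIGIRR*, a receptor that dampens signalling, at 0.99 ± 0.19, both under 2-fold. *IL1RAPL2*, a neuronal relative, was at 0 counts in all A-C samples and held 71 and 126 counts in D, at least 31.5-fold higher with each A sample set at the floor of 3 counts.

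Averaged over line sets at 200 ng/ml, no receptor was called by edgeR or DESeq2, with 3 of 7 at an unadjusted p of at most 0.05 by edgeR, against 23.9% of all genes. *IL1R1* rose by 0.60 ± 0.13 on the log2 scale (edgeR adjusted p = 0.0192) and *IL18R1* by 0.86 ± 0.20 (adjusted p = 0.0273), and *IL18R1* was called in D-F (log2 1.42 ± 0.29, adjusted p = 0.0208). *IL1RAP* (0.19 ± 0.15), *SIGIRR* (0.03 ± 0.14) and *IL1RL2* (0.23 ± 0.18) did not pass, nor did *IL1RAPL2*, whose averaged change could not be estimated because A-C was at 0. *IL1RL1*, the IL-33 receptor, held 0 and 6 counts in A, 39 and 18 in C and at most 5 in any D-F sample, and its change did not pass (adjusted p = 0.126). *IL18RAP* and *IL1RAPL1* were not tested. The median of the 7 receptors was 0.28 at 200 ng/ml, against −0.01 over all genes.

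Of the other ligands and the IL-18 binding protein, *IL18BP* and *IL37* were the 2 of 5 tested, and none was called in any comparison. *IL36B* was at 0 counts in all samples, and *IL36A* and *IL1F10* held at most 3. By edgeR neither *IL18BP* nor *IL37* had an unadjusted p of at most 0.05 at 200 ng/ml, and DESeq2 called 0. *IL18BP*, the soluble trap for IL-18, differed by 0.07 ± 0.15 on the log2 scale between untreated D and A (adjusted p = 0.731).

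All 21 genes of the receptor signalling list were tested, and 5 were called lower and 2 higher in untreated D than in A, where 11% of all genes were lower and 15.7% higher. *TNFAIP3*, an NF-κB-induced brake on NF-κB, was 8.53-fold lower (log2 −3.09 ± 0.12, edgeR adjusted p = 1.58e-07) and *IRAK3*, an inhibitory kinase relative, was 27-fold lower (log2 −4.76 ± 0.45, adjusted p = 4.99e-05). *IRAK3* held 89 and 116 counts in A but 4 and 4 in D, near the floor of 3, so the size of its fold is uncertain. It passed the low-count filter through A-C alone, where it is high. *TRAF6*, *RELB* and *TAB3* were lower and *IKBKB* and *IRAK2* higher. At 200 ng/ml averaged over line sets 0 were called by edgeR and by DESeq2, with 8 of 21 at an unadjusted p of at most 0.05 by edgeR against 23.9% of all genes, and 1 was called without A2 or without D1. In D-F *TNFAIP3* was called at 20 ng/ml (log2 1.50 ± 0.11) and 200 ng/ml (log2 1.72 ± 0.12, edgeR adjusted p = 1.71e-05), from 18.0 and 13.3 TPM in D to 46.7 and 57.6 TPM in F.

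Of the 24 genes of processing and release, 19 were tested. In untreated D, *CTSS*, a lysosomal protease that can cleave IL-36γ, was 8.16-fold lower, *CARD16*, a decoy of caspase-1, 5.19-fold, *AIM2*, a DNA-sensing inflammasome receptor, 4.51-fold, *CASP1* 3.64-fold and *CASP4* 2.13-fold. *GSDMC*, a pore-forming gasdermin, was 12.7-fold higher. With 200 ng/ml averaged over line sets 4 of 19 were called higher and none lower, against 1.58% and 0.552% of all genes. These were *AIM2* (log2 1.85 ± 0.15, edgeR adjusted p = 6.75e-05), *CTSS* (1.61 ± 0.12, adjusted p = 2.79e-05), *CARD16* (1.16 ± 0.24, adjusted p = 0.0153) and *GSDMB* (1.03 ± 0.26, adjusted p = 0.0378). Without D2 or without F1 the count was 2. *CASP1*, which cleaves both IL-1β and IL-18, was called in D-F (log2 1.22 ± 0.13, adjusted p = 0.000418), from 14.8 and 13.5 TPM in D to 38.7 and 31.7 TPM in F. *CARD16* is closely related in sequence to *CASP1*, so reads may have been divided uncertainly between them. Within A-C at that dose, *AIM2* (log2 1.21 ± 0.20) and *CASP8* (1.02 ± 0.13) were called. The list's median at 200 ng/ml was 0.37, against −0.01 over all genes.

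The IL-1 response list held epithelial genes known as targets of IL-1 through NF-κB. Of 18 tested, 14 were called lower in untreated D than in A (11% of all genes) and *IRAK2* higher (15.7% of all genes), with a median log2 difference of −2.43 against 0.01 over all genes. The chemokine *CCL2* held 10605 and 14161 counts in A and 0 and 2 in D, a counting ratio of 12679 with a 95% interval of 3509 to 104699. *CCL20* held 87 and 77 counts in A and 3 and 0 in D (counting ratio 56, 18.8 to 274). *CSF3* held 14 and 10 counts against 1 and 0 (24.6, 4.01 to 1011). *CCL2*, *CCL20* and *CSF3* held at most 6 counts in any D-F sample and passed the low-count filter through A-C alone. They could hardly be tested without being lower in D, so their calls add little to the count of 14. The list was also chosen with earlier results of these data known. *CSF2* was 18.5-fold lower (edgeR adjusted p = 4.49e-05), *TNF* 12-fold (adjusted p = 5.95e-05) and the neutrophil chemokine *CXCL8* 8.45-fold (adjusted p = 4.59e-07).

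For 200 ng/ml averaged over line sets, *IL6* (log2 1.81 ± 0.17, edgeR adjusted p = 0.000142) and *CXCL8* (1.20 ± 0.10, adjusted p = 6.57e-05) were called, and without D1 the count of called response genes was 5. In D-F 5 of 18 were called higher, against 1.67% of all genes, and in A-C *IL6* was, against 1.41%. In D-F all 18 estimates were positive with a median of 1.14, whereas in A-C 10 of 18 were positive with a median of 0.12. The 5 called in D-F were *IL6* (log2 2.54 ± 0.25), *CXCL8* (2.08 ± 0.14), *TNFAIP3* (1.72 ± 0.12), *CXCL1* (1.33 ± 0.13) and *CXCL2* (1.22 ± 0.29). *CXCL8* went from 26.2 and 23.1 TPM in D to 99.8 and 114 in F, and from 171 and 192 in A to 199 and 245 in C. *CXCL1* and *CXCL2* are close paralogs whose reads may be divided uncertainly. *TNFAIP3* and *IRAK2* are counted in both this list and the signalling list.

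The difference in response to 200 ng/ml between line sets was itself called for 5 of these 18 genes, *CXCL8* (log2 1.76 ± 0.20, edgeR adjusted p = 0.00439), *TNFAIP3* (1.50 ± 0.16, adjusted p = 0.00394), *ICAM1* (1.38 ± 0.18, adjusted p = 0.00867), *IRAK2* (1.04 ± 0.18, adjusted p = 0.0269) and *SOD2* (1.00 ± 0.19, adjusted p = 0.0359). Of all genes, 0.998% were called for this difference. *ICAM1* fell by 0.55 in A-C and rose by 0.83 in D-F on the log2 scale. *SOD2* fell by 0.66 in A-C and was at 0.35 ± 0.14 in D-F, which did not pass. The difference for *CTSS* was 2.23 ± 0.23 (adjusted p = 0.00394). *IL1A* and *IL1B* had differences of 0.93 and 0.96 in the same direction, and the part of any member in these changes was not tested. The 20 interferon-stimulated genes also had positive differences in 20 of 20 cases, with 8 called, against 0.998% of all genes. Their median difference was 1.01, from medians of 2.83 in A-C and 4.56 in D-F. Larger log2 changes in D-F were therefore also seen outside the IL-1 genes. In untreated D, 10 of these 20 genes were called lower than in A and 1 higher, with a median log2 difference of −1.04. Of all genes, 11% were called lower and 15.7% higher. The share of this baseline in the larger changes was not tested.

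**Figure D4:**
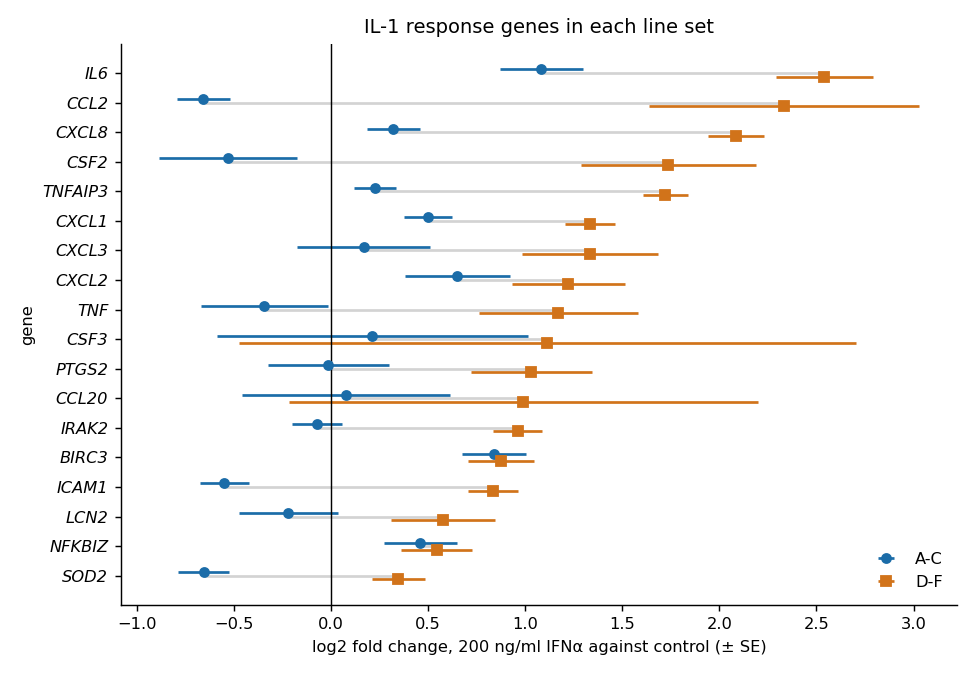
Log2 fold change at 200 ng/ml against control of the 18 tested IL-1 response genes in A-C (blue circles) and D-F (orange squares), with standard errors from edgeR, ordered by the D-F value. All 18 D-F values are above 0, whereas 10 of 18 A-C values are, and *IL6* is high in both line sets.

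The genes most like each member were sought by Pearson r of log2 CPM over the 12 samples after each line set's mean was subtracted, among 17081 other genes, as a description. *IL1A* was closest to *KRT6B*, a keratin of activated keratinocytes (r = 0.986), and *TNFAIP3* (0.985). *IL1R2* was closest to *INHBA*, the activin A subunit, and *GPR180* (both 0.979). *IL18* was closest to *CBR4* (0.958) and *CPSF2* (0.957), *IL1RN* to *RRBP1* (0.961) and AC064801.2 (0.960), and *IL36RN* to *SEMA4F* (0.908) and *GCH1* (0.897). *IL1B* was closest to 2 unannotated loci, MSTRG.72684 (0.990) and MSTRG.18730 (0.986), which were at 0 in all A-C samples, so the likeness there rests on the 6 D-F samples. The samples share libraries and depth.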

How the data were processed

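RNA of Cal27 and HN30 cells at 3 IFNα concentrations was sequenced from rRNA-depleted, strand-specific libraries on the HiseqXTen platform. The submitters' processing notes name Trimmomatic 0.36, HISAT2 2.1.0, StringTie 1.3.3b and the build GRCh38.p10. The authors deposited estimated counts per gene and transcript, in whole numbers and unscaled, and TPM values scaled for length and depth; deposited FPKM was not used. An estimated count of a transcript is divided among overlapping transcripts, and for the 8 members the transcript counts added up to the gene count in 12 of 12 samples.

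Samples were grouped by letter and dose from the titles, and every per-sample column was matched by name. Levels are TPM as deposited, with SDs over 2 replicates. Counts were fitted with edgeR 4.0.16 in R 4.3.3 (TMM, filterByExpr, quasi-likelihood test, Benjamini-Hochberg) in one fit of 6 letters, and contrasts averaged over or compared the line sets. The standard error is the log2 fold change over the square root of F. The common biological coefficient of variation was 0.196. Ratios of low counts carry exact conditional binomial 95% intervals from scipy 1.17.1, which cover counting error only. Total counts of 10517448 to 16056734 set a floor of 3 counts at 0.187 to 0.285 CPM. Replicates of a letter differed by more than sampling noise (chi-square over its degrees of freedom 11.69 to 16.42) and were kept as 2 samples.

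The members and gene lists were chosen with earlier results of these data known. The genes named are all 8 members, the called genes of each list up to the 5 largest changes per comparison, every tested receptor, and the 2 genes most like each tested member; *CASP4*, *TAB3*, the other ligands of the family and the untested receptors were named beyond this rule after their values were seen. *GSDME* is listed as *DFNA5* in the table. On simulated counts for 200 ng/ml against control over 19944 genes, 37 of 100 genes changed 2-fold and 78 of 100 changed 4-fold were called, with 8 false calls. The changed genes were drawn only from those above a minimum mean count, so these shares do not cover genes with fewer counts. Alternatives were RLE size factors, DESeq2 1.42.0, no filter, a replicate block, only the groups compared, an unadjusted threshold and leaving out each sample.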

Additional observations from a re-analysis of the deposited data

Results flagged for a closer look

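The response to IFNα differed between line sets, by a test of the difference itself, for *IL1A* and *IL1B* among the members. The log2 difference, D-F minus A-C, was 0.93 for *IL1A* at 200 ng/ml (edgeR adjusted p = 0.00439) and 0.92 at 20 ng/ml (adjusted p = 0.00628). For *IL1B* it was 0.96 at 200 ng/ml (adjusted p = 0.00671) and 0.79 at 20 ng/ml (adjusted p = 0.026). The *IL1B* difference at 20 ng/ml did not pass with a replicate block in edgeR (adjusted p = 0.0871). Levels of both ligands in untreated cells differed in the opposite direction, with D below A, and the share of the baseline in the difference was not tested.

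For *IL18* at 200 ng/ml both C samples lay above both A samples and both F samples below both D samples. Neither change passed by edgeR (log2 0.62 in A-C, adjusted p = 0.0777, and −0.48 in D-F, adjusted p = 0.171). By DESeq2 the A-C change passed (log2 0.63, adjusted p = 0.0337) and the D-F change did not (adjusted p = 0.116). The log2 difference was −1.09, with an edgeR adjusted p of 0.0645, which misses the threshold. It passed by DESeq2 (adjusted p = 0.0053) and by edgeR without A1 (0.0416) or C1 (0.0403), and the highest adjusted p over 16 alternatives was 0.191.

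Among the pathway genes the response to 200 ng/ml differed by 2.23 on the log2 scale for *CTSS* (edgeR adjusted p = 0.00394), 1.76 for *CXCL8* (adjusted p = 0.00439), 1.50 for *TNFAIP3* (adjusted p = 0.00394), 1.38 for *ICAM1* (adjusted p = 0.00867), 1.04 for *IRAK2* (adjusted p = 0.0269) and 1.00 for *SOD2* (adjusted p = 0.0359). For each of these genes the log2 change was higher in D-F, which does not mean a higher level there. The interferon-stimulated genes showed the same direction, with 20 of 20 differences positive, a median of 1.01 and 8 called. Of all genes, 0.998% were called for this difference.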

How the results depend on the processing

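The 5 members called between untreated line sets stayed 5 under every alternative run. For 200 ng/ml averaged over line sets the count of 2 lay between 1 and 2 without 1 sample at a time, within A-C the count of 1 lay between 0 and 1, and within D-F the count of 3 lay between 0 and 3. At 20 ng/ml the count of 1 became 2 with DESeq2 and 2 with the unadjusted threshold of the study's methods. For the difference between line sets at 200 ng/ml the count of 0 became 1 with DESeq2, 2 with the unadjusted threshold, and 0 to 1 without 1 sample. The receptor count at 200 ng/ml, 0, became 1 with the unadjusted threshold, and without 1 sample the counts lay between 0 and 1 for receptor signalling, 2 and 4 for processing and release, and 2 and 5 for IL-1 response genes. Leaving out samples reduces the residual degrees of freedom, and the cause of the other shifts was not tested.

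Among comparisons of a member's fold change with an alternative, 905 kept their side of the threshold, 48 lost and 7 gained it, and none that passed changed sign. Fits of only the groups compared were left out of these comparisons and of the ranges over 16 alternatives. A missing DESeq2 adjusted p was counted as not passing. Genes called at 20 ng/ml within A-C numbered 142 with edgeR and 238 with DESeq2, for 200 against 20 ng/ml 9 and 46, and for the difference between line sets 199 and 374 at 200 ng/ml and 46 and 162 at 20 ng/ml. Same-numbered replicates did not deviate together (r of −0.0507 to 0.0585 over 13033 genes). With 2 samples per letter, this cannot show whether same-numbered samples were handled together. With a replicate block within line sets, 2 members were called at 200 ng/ml in D-F instead of 3, with *IL1RN* at 2.95 (adjusted p = 0.0579), *IL1R2* at 20 ng/ml lost its calls within A-C (adjusted p = 0.12) and D-F (adjusted p = 0.0986), and *IL1B* lost the difference between line sets at 20 ng/ml (adjusted p = 0.0871). The block reduced the genes called for that difference at 200 ng/ml from 199 to 69. Depth limits *IL33*, *IL36G*, *IL36RN* and *IL1RN*, whose counts were at most 53 per sample. It also limits *IL1R2* in D-F, where the gene held 3 to 27 counts per sample.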
